A study of Homo sapiens with 12 samples.

Results

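The 10 genes described here encode the switch that takes a cell from G2 into mitosis. They are the kinase CDK1 and its cyclin partners CCNA2, CCNB1 and CCNB2, the activating phosphatases CDC25A, CDC25B and CDC25C, the mitotic kinases PLK1 and AURKA, and the inhibitory kinase WEE1. They were picked by gene symbol, with earlier results of these data known, and all 10 were found among the 59251 genes of the count table. Each passed the filter on low counts, which left 13318 genes for testing.

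Expression was measured by RNA-seq in HL60, a human acute myeloid leukemia cell line without the PML-RARA fusion. The cells received no drug (non-treated), 1 µM all-trans retinoic acid (ATRA), 1 µM palbociclib, an inhibitor of CDK4 and CDK6 (CDK4/6i), or both agents (CDK4/6i+ATRA, the combination), each for 48 h. Every group had 3 libraries that the labels call biological replicates, 12 in all, from 1 cell line, so that p-values measure the spread between these libraries. The question was how ATRA acted on the 10 genes in the absence and in the presence of CDK4/6i.

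CDK1 bound to cyclin A or cyclin B is the kinase that starts mitosis. WEE1 keeps it inactive by phosphorylating it, and CDC25 phosphatases remove that phosphate. AURKA activates PLK1, which in turn favours CDC25 over WEE1. Transcription of most of these genes is low in G1 and rises towards G2 and M, whereas CDC25A is already expressed at the G1/S transition, and palbociclib is known for holding cells in G1.

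Total counts ran from 12230923 to 18679544 per library and were lowest in the CDK4/6i+ATRA group. Levels are given as CPM (counts scaled to the library) after TMM normalization, under which 3 counts, taken here as the floor of detection, equalled 0.156 to 0.275 CPM. The median log2 fold change over all tested genes lay between -0.03 and 0.04 in every comparison. With library size alone it moved to -0.25 for the combination against non-treated cells and to -0.34 for the interaction of the drugs, and no call of a member was lost or changed direction under that scaling. The split of calls over all genes moved with it, from 3258 higher and 3594 lower to 1375 higher and 6061 lower in the interaction, from 5461 and 5424 to 4376 and 6431 for the combination against non-treated cells, from 5212 and 5261 to 3805 and 6554 against CDK4/6i alone, and from 4920 and 4371 to 2956 and 6412 against ATRA alone. Of 7 promyelocyte markers, MPO had between 6335 and 6666 CPM in non-treated cells, CTSG, CD33 and LYZ were also expressed, and AZU1, ELANE and PRTN3 had 0 counts in every library, each being listed in the table both on its chromosome and on an alternate contig. All 10 mitotic entry genes were listed on 1 contig each. Of 13 markers of other cells 3 were tested, CD3E, CD79A and PECAM1, and the summed level of the 13 ran from 29.5 to 58.3 CPM. Relative to non-treated cells this sum was 132% under ATRA, 130% under CDK4/6i and 70.8% with the combination, and the 3 tested markers were called lower in the interaction of the drugs, at -2.03 for CD3E, -1.20 for CD79A and -1.33 for PECAM1. Their part in the results was not tested.

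ATRA alone moved the mitotic entry genes in different directions. It raised CDK1, CCNB1, CCNB2, CDC25B, CDC25C, PLK1 and AURKA (7 of 10), lowered CDC25A and WEE1 (2 of 10), and left CCNA2 without a call (edgeR quasi-likelihood test, Benjamini-Hochberg adjusted p under 0.05 over all genes). In the same comparison 32.1% of all tested genes were called higher and 35.5% lower. The members' median log2 fold change was 0.28, with a range from -0.88 for CDC25A to 0.89 for CDC25C.

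CDK4/6i alone lowered all 10 genes, with a median log2 fold change of -2.66, where 27.9% of all genes were called lower and 28.3% higher. The combination also lowered all 10, with a median of -4.36, where 40.7% of all genes were called lower and 41.0% higher. Set against ATRA alone, the combination was lower in all 10 genes with a median of -4.51, beside 32.8% of all genes lower and 36.9% higher. In bulk RNA, fewer cells in G2 and M cannot be told apart from less of these RNAs per cell.

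In the presence of CDK4/6i, ATRA lowered genes that it had raised or left uncalled by itself. Compared with CDK4/6i alone, the combination lowered 9 of the 10 genes, CDC25C being the exception, with a median log2 fold change of -1.68. Of all genes, 39.5% were called lower and 39.1% higher in this comparison. The interaction, which is the log2 fold change of ATRA with CDK4/6i minus the one without it, was below 0 and called in all 10 genes, with a median of -1.85 and a range from -2.68 for CDC25A to -1.52 for CDC25C. On the linear CPM scale the interaction of CDC25A and WEE1 was above 0 and called, and that of CCNA2 was not called (limma). The edgeR interaction was called lower in 27.0% and higher in 24.5% of all genes. On the linear scale 2605 of the 13318 tested genes were called lower and 4178 higher. The comparisons share libraries with each other, since every group enters more than one of them.

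**Figure D1:**
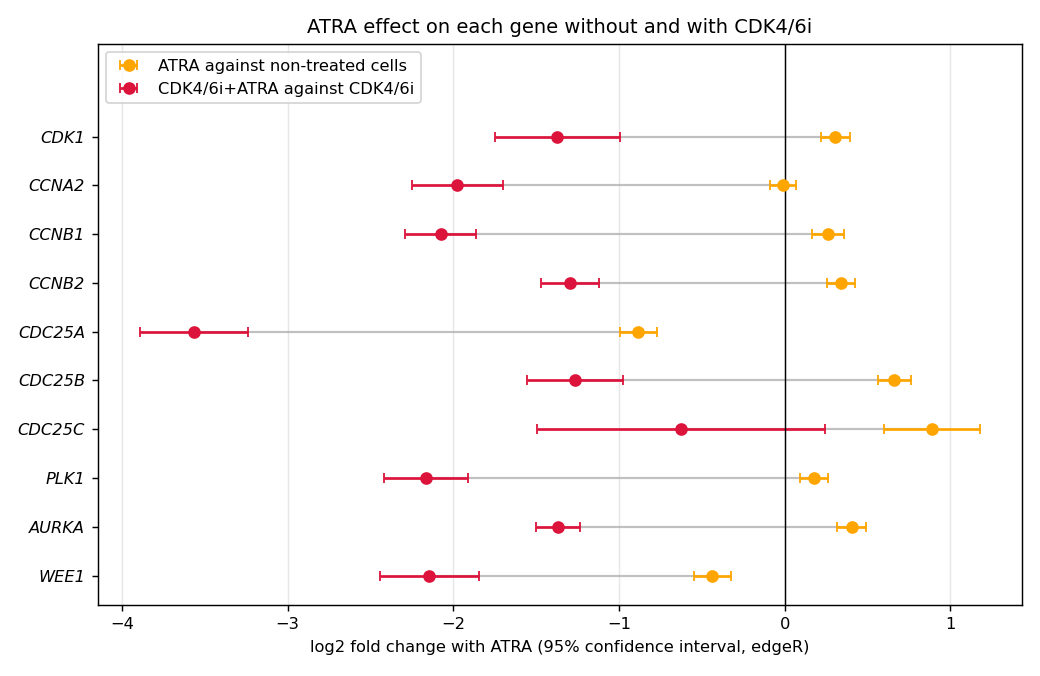
Log2 fold change with ATRA of each of the 10 genes, in the absence of CDK4/6i, relative to non-treated cells, and in its presence (CDK4/6i+ATRA against CDK4/6i); points are edgeR estimates from 3 libraries per group and bars are 95% confidence intervals. In every gene the estimate with CDK4/6i lies to the left of the one without it, and CDC25C has the widest interval.

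CDK1, the kinase of the switch, and CCNA2 had the lowest log2 fold changes of the 10 genes with CDK4/6i. CDK1 (chr10:60778331-60794852 on hg38, plus strand) was at 150.0, 152 and 139 CPM in the 3 non-treated libraries and at 179, 181 and 185 CPM with ATRA. It was at 5.50, 4.95 and 6.85 CPM with CDK4/6i and at 2.47, 1.78 and 2.40 CPM with the combination, which rested on 20 to 29 counts per library. The 4 groups did not overlap, ATRA being highest and the combination lowest. The log2 fold change against non-treated cells was 0.31 ± 0.04 (SE, adjusted p = 2.06e-08) for ATRA, -4.67 ± 0.09 (9.12e-45) for CDK4/6i and -6.04 ± 0.17 (1.39e-45) for the combination in the edgeR test. The mean level was thus 3.92% ± 0.663 (SD, n = 3) of that in non-treated cells with CDK4/6i and 1.51% ± 0.258 with the combination. The interaction of CDK1 was -1.68 ± 0.19 (adjusted p = 2e-11, edgeR).

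CCNA2, cyclin A2, which serves in S phase as well as in G2 (chr4:121816444-121823883, minus strand), was the one member that ATRA alone did not move. It was at 265, 251 and 238 CPM in non-treated cells and at 243, 254 and 249 CPM with ATRA, and these ranges overlapped. CDK4/6i brought it to 15.3, 16.7 and 15.0 CPM and the combination to 3.30, 4.55 and 4.05 CPM. The log2 fold change with ATRA was -0.01 (95% confidence interval from -0.09 to 0.07, adjusted p = 0.779), whereas in the presence of CDK4/6i it was -1.98 ± 0.14 (adjusted p = 2.26e-20, edgeR). On the linear scale its interaction was not called, at -9.34 ± 7.14 CPM (adjusted p = 0.300, limma). The exons of CCNA2 share 254 bases with EXOSC9 on the opposite strand, a gene with 7425 counts over all libraries against 26428 for CCNA2, and how much of either count the shared bases hold was not tested.

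The B cyclins, which carry CDK1 into mitosis, kept more of their RNA. CCNB1 (chr5:69167150-69178245, plus strand) was at 103, 103 and 101 CPM in non-treated cells and at 119.7, 123 and 126 CPM with ATRA. With CDK4/6i it was at 29.5, 33.2 and 29.3 CPM, and with the combination at 7.52, 8.56 and 5.78 CPM. All 4 groups stood apart, and the interaction was -2.34 ± 0.12 (adjusted p = 3.03e-24, edgeR). CCNB2 (chr15:59105146-59125045, plus strand) was at 125, 124 and 122 CPM in non-treated cells and at 151, 164 and 155 CPM with ATRA. It was at 28.7, 27.6 and 28.4 CPM with CDK4/6i and at 11.0, 13.1 and 10.5 CPM with the combination, again with no overlap between the groups. Its interaction was -1.64 ± 0.10 (adjusted p = 1.11e-20, edgeR).

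Expressed per kb of gene length, so that genes can be set side by side, the makeup of the cyclin pool differed between the groups. CCNA2 made up 40.6% ± 1.05 (SD, n = 3) of the summed CPM per kb of the 3 cyclins in non-treated cells, 35.3% ± 0.213 under ATRA, 14.3% ± 0.451 under CDK4/6i and 11.3% ± 1.59 with the combination. CCNB2 made up 37.0% ± 0.623, 41.0% ± 0.719, 47.8% ± 2.16 and 60.7% ± 1.12 in the same order. The share of CCNB1 was highest with CDK4/6i, at 37.9% ± 1.71, and stood at 28.0% ± 2.62 with the combination. The library ranges of the CCNA2 share and of the CCNB2 share did not overlap between any of the groups, and with 3 libraries against 3 an exact permutation test cannot give a p below 0.1. The summed level of the 3 cyclins was 225 ± 6.57 CPM per kb in non-treated cells, 256 ± 7.42 under ATRA, 39.8 ± 1.06 under CDK4/6i and 12.8 ± 1.70 with the combination.

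**Figure D2:**
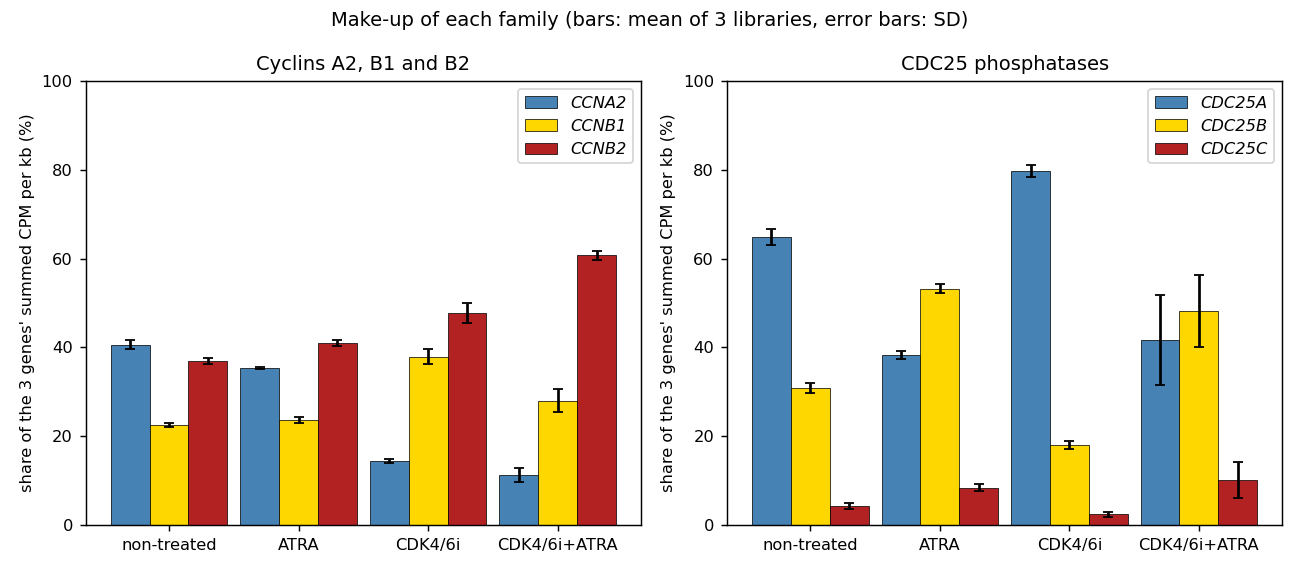
Share of each gene in the summed CPM per kb of its family (in %) for the cyclins CCNA2, CCNB1 and CCNB2 and for the CDC25 phosphatases, in the 4 groups; bars are means of 3 libraries and error bars are SD. The CCNA2 share is 40.6% in non-treated cells and 11.3% with CDK4/6i+ATRA, and the CDC25A share is 64.9% in non-treated cells, 38.3% with ATRA and 79.7% with CDK4/6i.

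The promoters of these genes are shown because all members fell with CDK4/6i and with the combination. In their RefSeq sequences (GRCh38.p14) the 250 bases before each annotated start were searched on both strands for TTTGAA, the cell cycle genes homology region (CHR), for CCAAT, and for the E2F sites TTTCCCGC, TTTCGCGC, TTTGGCGC and TTTGCCGC. These are sequences known from cell cycle promoters, and no match is a shown binding site. Among 35116 annotated start windows of this length 13.3% held a CHR, 32.0% a CCAAT box, 2.79% one of the E2F sites, 4.69% a CHR together with a CCAAT box and 9.53% at least 2 CCAAT boxes. Promoter entries were matched for 8 of the 10 genes, AURKA and WEE1 being the others. Capitals mark CHR and CCAAT matches, in either orientation, in the windows chr10:60778081-60778330 of CDK1 (plus strand), chr4:121823884-121824133 of CCNA2 (minus strand), chr5:69166900-69167149 of CCNB1 (plus strand) and chr15:59104896-59105145 of CCNB2 (plus strand).
CDK1: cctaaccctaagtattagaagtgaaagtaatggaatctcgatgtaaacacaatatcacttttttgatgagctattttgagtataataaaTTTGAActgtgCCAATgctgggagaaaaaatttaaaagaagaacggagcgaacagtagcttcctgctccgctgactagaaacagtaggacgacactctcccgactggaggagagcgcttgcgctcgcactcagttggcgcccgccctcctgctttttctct
CCNA2: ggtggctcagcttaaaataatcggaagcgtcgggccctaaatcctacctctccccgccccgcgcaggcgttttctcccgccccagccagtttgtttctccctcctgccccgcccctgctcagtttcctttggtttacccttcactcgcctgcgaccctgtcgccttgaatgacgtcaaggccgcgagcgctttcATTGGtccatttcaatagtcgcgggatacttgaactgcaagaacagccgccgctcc
CCNB1: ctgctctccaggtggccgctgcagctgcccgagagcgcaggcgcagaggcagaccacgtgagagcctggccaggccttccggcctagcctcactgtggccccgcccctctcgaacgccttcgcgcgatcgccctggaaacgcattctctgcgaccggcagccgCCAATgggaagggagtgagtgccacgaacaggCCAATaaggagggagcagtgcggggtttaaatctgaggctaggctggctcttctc
CCNB2: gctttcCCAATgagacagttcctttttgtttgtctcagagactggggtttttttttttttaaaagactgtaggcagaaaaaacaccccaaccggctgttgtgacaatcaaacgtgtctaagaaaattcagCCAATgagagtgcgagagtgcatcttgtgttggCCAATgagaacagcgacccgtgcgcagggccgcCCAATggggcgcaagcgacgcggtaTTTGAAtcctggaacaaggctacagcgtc

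CCNB2 held a CHR that began 29 bases before its start and 4 CCAAT boxes that began 244, 120, 87 and 54 bases before it. CCNB1 held CCAAT boxes at 87 and 55 bases before the start and no TTTGAA, and CCNA2 a single CCAAT box at 56 bases. CDK1 held a CHR at 161 and a CCAAT box at 150 bases before the first of its RefSeq starts. For its second start, whose 250 bases share 129 with an exon in the count table and are not printed, TTTGAA was found at 69 and 13 bases, CCAAT at 78 and 46 bases and an E2F site at 128 bases before the start. No matches of different motifs overlapped in the printed windows.

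**Figure D3:**
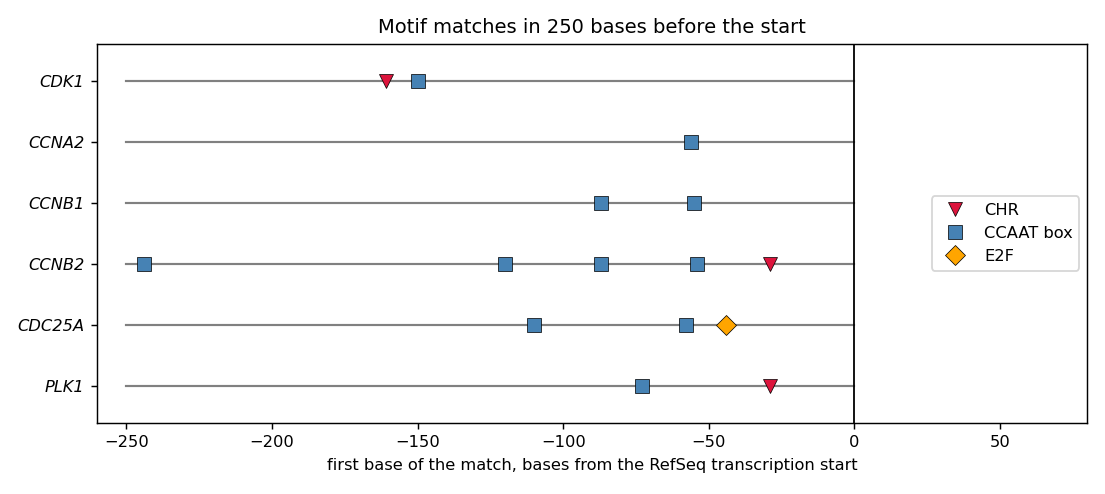
Position of the CHR, CCAAT box and E2F matches in the 250 bases before the RefSeq start of 6 of the genes; the horizontal axis gives the first base of each match in bases from the start, which is at 0. CCNB2 and PLK1 have a CHR at -29, CDK1 has one at -161 before its first start, and CDC25A has the one E2F match of the windows drawn, at -44. The second CDK1 start, with an E2F match at -128, is not drawn. CHR matches are of TTTGAA only, and other forms were not searched.

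The CDC25 phosphatases, which activate CDK1, did not respond alike to ATRA. CDC25A, which acts at the G1/S transition as well as at mitosis (chr3:48157146-48188417, minus strand), was at 159, 154 and 136 CPM in non-treated cells and at 75.0, 83.6 and 84.9 CPM with ATRA. It was at 39.2, 41.6 and 43.1 CPM with CDK4/6i and at 2.11, 4.37 and 3.88 CPM with the combination. The groups stood apart, each drug alone lowering it and the combination leaving 2.30% ± 0.794 (SD, n = 3) of the level in non-treated cells.

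For CDC25A the log2 fold change with ATRA was -0.88 ± 0.05 (adjusted p = 9.11e-20) without CDK4/6i and -3.57 ± 0.16 (1.26e-30) with it, in the edgeR test. The latter corresponds to an 11.8-fold fall and was the lowest of the 10 genes. The interaction was -2.68 ± 0.17 (adjusted p = 1.81e-21, edgeR). On a linear scale the order turns. ATRA took away more CPM without CDK4/6i than with it, so that the interaction of CDC25A in CPM was 30.9 ± 6.42 (adjusted p = 0.00112, limma), that is, above 0.

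CDC25B, which is known to start the activation of CDK1 at the centrosome (chr20:3786951-3806115, plus strand), moved the other way with ATRA. It was at 68.8, 70.9 and 67.0 CPM in non-treated cells and at 105, 109.9 and 111 CPM with ATRA, a log2 fold change of 0.66 ± 0.05 (adjusted p = 1.51e-16, edgeR). CDK4/6i brought it to 7.93, 9.35 and 9.83 CPM and the combination to 3.76, 3.39 and 4.05 CPM. The 4 groups did not overlap, and the interaction was -1.93 ± 0.15 (adjusted p = 1.65e-16, edgeR).

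CDC25C, the phosphatase that CDK1 and PLK1 activate in mitosis (chr5:138285265-138338355, minus strand), was the least abundant member per kb. It was at 5.59, 6.71 and 6.93 CPM in non-treated cells and at 11.2, 13.5 and 10.9 CPM with ATRA, a rise of 0.89 ± 0.14 on the log2 scale (adjusted p = 3.68e-07, edgeR). Its counts were 11, 17 and 15 with CDK4/6i (0.570, 1.04 and 0.878 CPM) and 7, 7 and 4 with the combination (0.642, 0.624 and 0.331 CPM). These last groups overlapped, and their difference was not called, with a log2 fold change of -0.63 and a 95% confidence interval from -1.50 to 0.24 (adjusted p = 0.166, edgeR). With library size alone the same difference was -0.90 (adjusted p = 0.0458, edgeR), and at 4 to 17 counts per library a fall of the size seen in AURKA lay inside the interval. The interaction was -1.52 ± 0.46 (adjusted p = 0.00297, edgeR). CDC25C shares 42 exon bases with FAM53C on the opposite strand, which had 12508 counts against 996 for CDC25C over all libraries, and their part in these counts was not tested.

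Within the family, CDC25A made up 64.9% ± 1.81 (SD, n = 3) of the summed CPM per kb in non-treated cells, 38.3% ± 0.917 under ATRA, 79.7% ± 1.38 under CDK4/6i and 41.8% ± 10.1 with the combination. CDC25B made up 30.9% ± 1.16, 53.2% ± 1.00, 18.0% ± 0.860 and 48.2% ± 8.07 in the same order. CDC25B thus exceeded CDC25A per kb in every ATRA library, and CDC25A exceeded CDC25B in every non-treated and every CDK4/6i library. With CDK4/6i+ATRA the log2 ratio of CDC25A to CDC25B ran from -0.88 to 0.32, so that neither was the higher one in all 3 libraries. The summed CDC25 level was 60.0 ± 3.36 CPM per kb in non-treated cells, 55.0 ± 2.46 under ATRA, 13.5 ± 0.849 under CDK4/6i and 2.11 ± 0.262 with the combination.

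The promoter of CDC25A is shown because it was the member with the lowest interaction and the only one of the printed set with an E2F match. In its window (chr3:48188418-48188667, minus strand, GRCh38.p14) CCAAT boxes in capitals began 110 and 58 bases before the start, and the E2F match TTTGGCGC, left in lower case, began 44 bases before it. No TTTGAA was found.
CDC25A: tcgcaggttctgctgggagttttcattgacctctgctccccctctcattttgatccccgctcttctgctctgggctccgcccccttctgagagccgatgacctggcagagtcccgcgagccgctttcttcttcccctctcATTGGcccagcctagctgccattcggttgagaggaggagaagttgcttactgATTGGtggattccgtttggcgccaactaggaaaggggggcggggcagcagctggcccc

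CDC25B has 4 annotated start windows in RefSeq, of which 2 held a single CCAAT box and none held TTTGAA. Of the 4 windows of CDC25C, 1 held TTTGAA, at 30 bases before the start, and a CCAAT box at 85 bases. Another held 3 CCAAT boxes, at 217, 200 and 12 bases before its start, and no TTTGAA.

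PLK1, which phosphorylates CDC25C and WEE1 among many mitotic substrates (chr16:23678889-23690367, plus strand), was at 193, 200.2 and 197 CPM in non-treated cells and at 217, 218 and 233 CPM with ATRA. It was at 19.1, 21.9 and 22.5 CPM with CDK4/6i and at 5.68, 4.19 and 4.30 CPM with the combination. No group overlapped another, although the rise with ATRA alone was only 0.18 ± 0.04 on the log2 scale (adjusted p = 0.000157, edgeR). With CDK4/6i present, ATRA lowered PLK1 by 4.48-fold, and the interaction was -2.34 ± 0.13 (adjusted p = 1.18e-22, edgeR). Its promoter window (chr16:23678639-23678888, plus strand, GRCh38.p14), shown as the one besides CCNB2 in which a CHR began 29 bases before the start, held a CCAAT box at 73 bases, with both in capitals.
PLK1: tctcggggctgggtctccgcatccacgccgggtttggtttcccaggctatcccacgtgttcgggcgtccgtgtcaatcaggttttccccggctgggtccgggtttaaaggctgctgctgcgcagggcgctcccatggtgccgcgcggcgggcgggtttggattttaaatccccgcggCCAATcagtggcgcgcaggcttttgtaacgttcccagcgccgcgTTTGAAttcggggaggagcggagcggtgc

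AURKA, the kinase that activates PLK1 and builds the spindle poles (chr20:56369390-56392215, minus strand), kept the largest part of its level of all members under both drugs. It was at 137, 138 and 132 CPM in non-treated cells and at 174, 187 and 177 CPM with ATRA. With CDK4/6i it was at 64.5, 68.1 and 66.9 CPM, and with the combination at 29.1, 22.1 and 25.9 CPM. The groups did not overlap, and 49.0% ± 1.38 (SD, n = 3) of the level in non-treated cells was left with CDK4/6i and 19% ± 2.60 with the combination. The log2 fold change of AURKA with CDK4/6i, -1.03 ± 0.05 (adjusted p = 2.24e-24, edgeR), was the smallest fall among the 10 genes. Its interaction was -1.77 ± 0.08 (adjusted p = 5.71e-25, edgeR). The pseudogenes AURKAP1 and AURKAP2, to which AURKA reads could be assigned, held 204 counts together against 20441 for AURKA.

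WEE1, the kinase that restrains CDK1 (chr11:9573670-9589985, plus strand), was lower than in non-treated cells in every treated group. It was at 78.6, 78.0 and 82.4 CPM in non-treated cells and at 58.2, 57.4 and 61.0 CPM with ATRA, a log2 fold change of -0.44 ± 0.06 (adjusted p = 2.03e-09, edgeR). It was at 14.4, 17.8 and 13.8 CPM with CDK4/6i and at 3.48, 3.39 and 3.47 CPM with the combination. The groups stood apart, and the interaction was -1.71 ± 0.16 (adjusted p = 2.7e-14, edgeR). As for CDC25A, the linear scale turned its sign, to 8.91 ± 2.58 CPM (adjusted p = 0.0105, limma). CCNA2 was the other gene without a negative call on that scale, while the 7 remaining members stayed below 0 and called, from -84.5 CPM for AURKA to -5.78 CPM for CDC25C. Of all 13318 tested genes, 2605 were called lower and 4178 higher in the linear interaction.

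**Figure D4:**
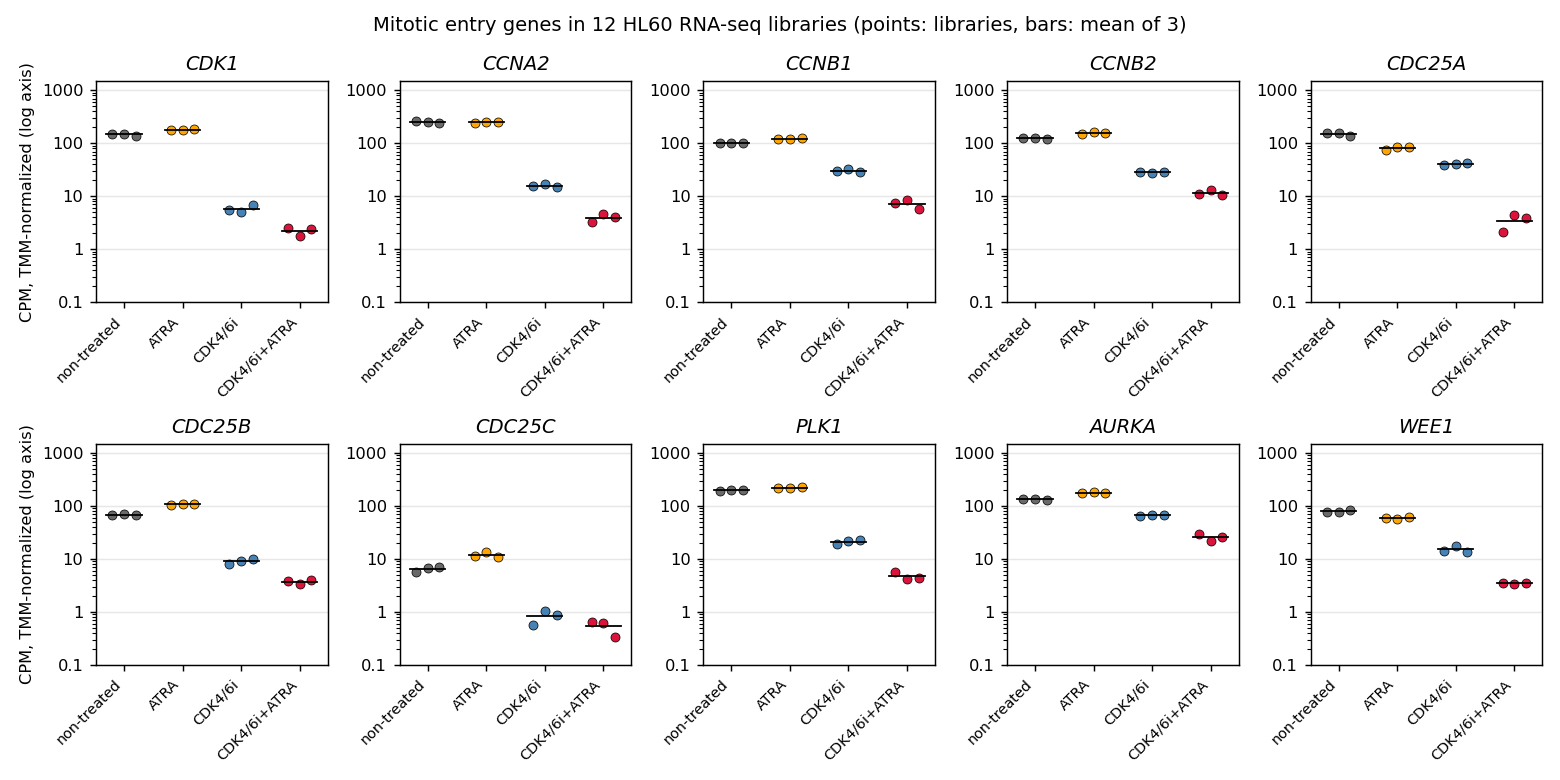
CPM after TMM normalization (log axis) of the 10 genes in the 12 libraries; points are single libraries and horizontal bars the mean of 3. CDK1 lies between 139 and 185 CPM without CDK4/6i and between 1.78 and 6.85 CPM with it, and AURKA goes from 132 to 138 CPM in non-treated cells to 22.1 to 29.1 CPM with both drugs.

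The activator and the inhibitor of the switch did not fall by the same amount. The log2 ratio of CDK1 to WEE1, per kb, was 1.22 ± 0.11 (SD, n = 3) in non-treated cells and 1.96 ± 0.03 under ATRA, but -1.08 ± 0.42 under CDK4/6i and -0.31 ± 0.24 with the combination. CDK1 was above WEE1 per kb in all libraries without CDK4/6i and below it in all libraries with CDK4/6i. PLK1 and AURKA traded places in the same way, with a log2 ratio of 0.99 ± 0.04 in non-treated cells, 0.76 ± 0.09 under ATRA, -1.20 ± 0.09 under CDK4/6i and -2.0 ± 0.13 with the combination.

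Levels per kb, which allow genes to be ranked, placed CCNA2 at 91.5 ± 5.02 (SD, n = 3) and PLK1 at 91.1 ± 1.57 CPM per kb at the top in non-treated cells, and these did not differ beyond their spread. CCNB2 followed at 83.2 ± 1.03, CCNB1 at 50.5 ± 0.619, AURKA at 45.9 ± 1.06, CDK1 at 43.3 ± 2.02 and CDC25A at 39.0 ± 3.17 CPM per kb. WEE1 and CDC25B were level with each other at 18.6 ± 0.564 and 18.5 ± 0.517, and CDC25C was lowest at 2.49 ± 0.279 CPM per kb. Under the combination the order was AURKA at 8.71 ± 1.19, CCNB2 at 7.75 ± 0.930, CCNB1 at 3.59 ± 0.690 and PLK1 at 2.19 ± 0.386 CPM per kb, with AURKA and CCNB2 within each other's spread. CCNA2 came next at 1.44 ± 0.228, CDC25B at 1.00 ± 0.0892, CDC25A at 0.898 ± 0.310, WEE1 at 0.803 ± 0.0121, CDK1 at 0.653 ± 0.112 and CDC25C at 0.207 ± 0.0680 CPM per kb. CDK1 had moved from the middle of the order to the place above CDC25C, and CDC25A did not differ from CDC25B or WEE1 beyond its spread.

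Over the 3 log2 fold changes against non-treated cells, the closest pairs of members were CCNB1 with CCNB2 (Euclidean distance 0.556), CDC25B with CDC25C (0.654) and CDK1 with CCNA2 (0.743). Among 9291 other genes with a mean of at least 5 CPM, FANCI (0.255), NCAPG2 (0.382), UBE2T (0.505), C21orf58 (0.513) and UHRF1 (0.525) lay nearest to the members' median pattern. The nearest gene to CDK1 was FOXM1 (0.179), a transcription factor known for driving G2 and M genes. The nearest to CCNA2 was BRIP1 (0.0915), to CCNB1 HMGB3 (0.217), to CCNB2 ATAD2 (0.147) and to CDC25A FANCE (0.389). CENPE lay nearest to CDC25B (0.323), PSRC1 to CDC25C (0.200), the mitotic kinesin KIF2C to PLK1 (0.161), DBF4B to AURKA (0.225) and GMNN, the inhibitor of replication licensing, to WEE1 (0.235). These distances describe 4 groups of 3 libraries and carry no test.

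The wider network was counted from lists of general knowledge. Of 15 mitotic entry partners, regulators and substrates that work with the 10 genes, 14 were tested, CDK7 with 1 to 7 counts per library being left out. Like AZU1, ELANE and PRTN3, CDK7 is listed both on its chromosome and on an alternate contig, and whether this bears on its count was not tested. CDK4/6i lowered 11 and raised 0, the combination lowered 12 and raised 1 against non-treated cells, and the interaction was lower in 8 and higher in 3, or lower in 12 and higher in 0 with library size alone. Over all genes CDK4/6i lowered 27.9%, the combination lowered 40.7% and raised 41.0%, and the interaction was lower in 27.0% and higher in 24.5%, so that the share of partners higher in it was near that of all genes. With library size alone 6061 of the 13318 genes were lower in the interaction, and these shares are also the background of the interaction counts of the lists that follow. The median log2 fold change of the 14 was -0.39 with CDK4/6i and -0.92 with the combination, so it lay nearer to 0 than that of the members. PKMYT1, the membrane-bound relative of WEE1 that also inhibits CDK1, had the lowest log2 fold change of the list for the combination, -6.45 ± 0.29 (adjusted p = 1.73e-39, edgeR), and was left at 0.550 to 1.07 CPM. TPX2, the activator of AURKA, had the lowest interaction, -2.78 ± 0.10 (adjusted p = 4.9e-31, edgeR), and went from 244 to 261 CPM in non-treated cells to 8.18 to 9.44 CPM with the combination.

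The 3 partners called with a positive interaction were MASTL, ENSA and PPP2R2A, of which MASTL was named after its values were seen. MASTL is the Greatwall kinase, ENSA its substrate, and PPP2R2A the B55 subunit of the phosphatase that ENSA inhibits and that reverses CDK1 phosphorylation. MASTL was at 29.8 to 34.5 CPM in non-treated cells, 36.8 to 38.9 under ATRA, 10.1 to 12.5 under CDK4/6i and 15.7 to 19.8 CPM with the combination, and its interaction was 0.37 ± 0.12 (adjusted p = 0.0101, edgeR). ENSA rose by 0.19 ± 0.04 with the combination (adjusted p = 2.04e-05, edgeR), and PPP2R2A had a log2 fold change of 0.09 ± 0.06 there (adjusted p = 0.199). Their interactions were 0.16 ± 0.05 (adjusted p = 0.0131, edgeR) for ENSA and 0.38 ± 0.09 (0.000214) for PPP2R2A. None of these 3 calls held with library size alone, under which the interactions were 0.05 for MASTL (adjusted p = 0.736, edgeR), 0.06 for PPP2R2A (0.580) and, with the sign turned, -0.16 for ENSA (0.00711), and ENSA was at -0.08 (0.0569) for the combination.

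Of 12 G2 checkpoint genes 9 were tested, and the combination lowered 8 and raised 1 of them, with a median log2 fold change of -1.59. This stood beside 40.7% of all genes lower and 41.0% higher. The interactions of the 9 were lower in 7 and higher in 1. The higher one, ATM, named after its value was seen, was at 0.22 (adjusted p = 0.0112, edgeR) and lost its call with library size alone, at -0.10 (0.363), where 8 were lower and 0 higher. Of 21 subunits and partners of the anaphase-promoting complex and mitotic ubiquitin ligases, which destroy cyclins, 13 were lower and 5 higher with the combination, with a median of -0.58, beside 40.7% lower and 41.0% higher among all genes. With library size alone 16 were lower and 2 higher, with a median of -0.84. These interactions were lower in 10 and higher in 4, or lower in 14 and higher in 1 with library size alone. The 10 paralogues of the members showed no common direction with the combination against non-treated cells. Of 6 tested, 3 were lower and 2 higher there, beside 40.7% lower and 41.0% higher among all genes. AURKB, the kinase of the chromosomal passenger complex, was at 39.1 to 42.4 CPM in non-treated cells and at 0.733 to 1.16 CPM with the combination, and PLK4, which duplicates centrioles, went from 61.2 to 62.5 CPM to 0.981 to 1.98 CPM, with an interaction of -3.44 ± 0.21 (adjusted p = 2e-23, edgeR). PLK3, a stress-induced relative of PLK1, rose from 5.01 to 5.71 CPM to 55.7 to 59.9 CPM, a log2 fold change of 3.46 ± 0.12 (adjusted p = 5.96e-33, edgeR), with an interaction of 2.01 ± 0.17. CCNA1, the paralogue of CCNA2 known from germ cells and myeloid leukemia, rose by 1.80 ± 0.16 with ATRA (adjusted p = 1.73e-14, edgeR) and by 1.18 ± 0.18 with the combination (4.25e-08), where CCNA2 fell.

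**Figure D5:**
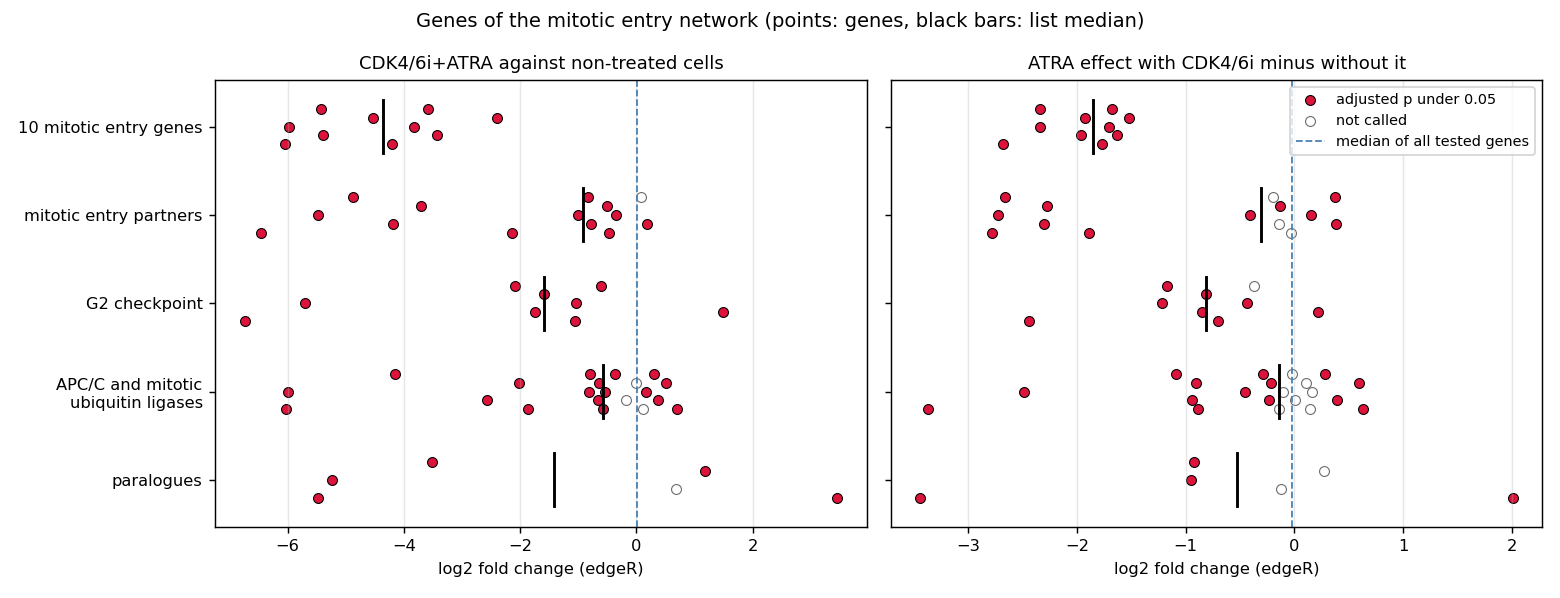
Log2 fold change of CDK4/6i+ATRA over non-treated cells (left) and interaction (right) of the 10 mitotic entry genes and of the tested genes of 4 lists; points are genes, filled where the adjusted p is under 0.05, black bars are list medians and the dashed line is the median of all tested genes. The 10 genes lie between -6.04 and -2.40 on the left and between -2.68 and -1.52 on the right, whereas the lists also hold genes near or above 0.

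Markers of cycling cells fell with the members wherever CDK4/6i was present. All 8 (MKI67, TOP2A, PCNA, MCM2, MCM6, TYMS, BUB1 and CENPF) were called lower with CDK4/6i, with the combination and in the interaction, beside 27.9%, 40.7% and 27.0% of all genes. Their summed level ran from 3410 to 3454 CPM in non-treated cells, from 3701 to 3789 under ATRA, from 507 to 537 under CDK4/6i and from 79.7 to 84.0 CPM with the combination, which is 109%, 15.2% and 2.39% of the mean in non-treated cells. With ATRA alone they were divided. MKI67 and TOP2A, at 155% and 143% of non-treated cells, and BUB1 were called higher, whereas the replication genes MCM6 at 67.4%, MCM2 at 69.5%, PCNA at 78.5% and TYMS at 85.4% were called lower and CENPF was not called, beside 32.1% of all genes higher and 35.5% lower. Their part in the result was not tested. The promyelocyte markers, by contrast, were at 5.71% under ATRA, 54.7% under CDK4/6i and 2.54% with the combination of their summed level in non-treated cells. MPO made up most of that sum in the first 3 groups. With the combination MPO itself was at 0.429% of non-treated cells, CD33 at 93.8 to 103 CPM made up most of the sum, and LYZ was called higher than in non-treated cells, by 0.73 ± 0.08 on the log2 scale (adjusted p = 2.1e-12, edgeR).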

How the data were processed

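RNA-seq libraries of HL60 cells, 3 per group, were analysed from the table of raw gene counts that the authors deposited, which holds whole numbers without normalization for 59251 genes together with exon positions and gene length in bases. According to the submitters' processing notes, reads were trimmed with Trimmomatic 0.33 and aligned to hg38 with STAR 2.7.11a. The study's methods name RSEM for quantification, whereas the header has the layout of featureCounts, and whether reads were counted by strand is not given in the sources used here. Counts were used as deposited, groups were taken from the labels, and no column was left unmapped (0 columns).

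Genes were filtered with filterByExpr, normalized with TMM and tested with the quasi-likelihood F test of edgeR 4.0.16 (R 4.3.3) on a model of the 4 groups, which left 8 residual degrees of freedom. P-values were adjusted by Benjamini-Hochberg across the 13318 genes that passed, and the threshold was 0.05. Standard errors are Wald errors from the same fit, and the 95% intervals built on them cover the spread between these libraries only. Replicate libraries differed by more than sampling noise (chi-square per degree of freedom from 1.85 to 6.84) and were counted separately. The interaction tests of edgeR and DESeq2 were also run on simulated counts, with a small set of genes changed in the combination group only. That setting does not cover the choice of scaling. Other settings were tried 1 at a time. For scaling these were the size factors of DESeq2 and plain library totals, and for low counts a minimum of 10 in each library or no minimum. For the model they were a block for replicate number, a fit restricted to the groups being compared, DESeq2 1.42.0 itself, limma 3.58.1 on the linear scale, and the omission of single libraries.

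The members and the gene lists were chosen with earlier results of these data known. All 10 members are named. From the lists of partners and paralogues the genes with the highest and lowest interaction or CDK4/6i+ATRA change are named, up to 4 a list. CCNA1 came next after PLK3 among the paralogues in both. MASTL of the partners and ATM of the G2 checkpoint list are further ones, chosen after their values were seen. The nearest genes are the 5 closest to the members' median and the 1 closest to each member, among genes with a mean of at least 5 CPM. Distances are Euclidean over the 3 log2 fold changes. Promoters are RefSeq sequences of GRCh38.p14. Figures were drawn with matplotlib 3.10.9.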

Additional observations from a re-analysis of the deposited data

Results flagged for a closer look

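The effect of ATRA differed with and without CDK4/6i in all 10 mitotic entry genes by the edgeR test of the interaction, which drew attention to each of them. By the same test 27.0% of all genes were called lower and 24.5% higher. The interaction was -1.68 for CDK1, -1.96 for CCNA2, -2.34 for CCNB1 and -1.64 for CCNB2. It was -2.68 for CDC25A, -1.93 for CDC25B and -1.52 for CDC25C. It was -2.34 for PLK1, -1.77 for AURKA and -1.71 for WEE1. For CDK1, CCNB1, CCNB2, CDC25B, PLK1 and AURKA, ATRA was called higher without CDK4/6i and lower with it. For CDC25A and WEE1 it was called lower in either setting. CCNA2 was called lower only in the presence of CDK4/6i, and CDC25C was called higher only in its absence, with CDK4/6i+ATRA not past the threshold against CDK4/6i. On the linear CPM scale the interaction of CDC25A and WEE1 had the opposite sign and that of CCNA2 was not past the threshold.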

How the results depend on the processing

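The direction of the 10 genes in the 6 comparisons and their side of the threshold were recomputed under the alternatives, except that the linear scale was run for the interaction only and the fit of only the groups compared has no interaction and did not test CDC25C against CDK4/6i. Of 1133 such values 1122 kept both. The change of CCNA2 with ATRA alone, never past the threshold and -0.01 on the log2 scale in the reported model, turned to 0.019 with DESeq2 size factors, 0.028 with library size alone, 0.013 with at least 10 counts in every library, 0.037 with only the groups compared and 0.019 with DESeq2, and lay between -0.054 and 0.026 when single libraries were left out. On the linear scale the interaction of CDC25A was 30.9 CPM and that of WEE1 8.91 CPM, both above 0 and called, and that of CCNA2 was -9.34 CPM and not past the threshold (limma adjusted p = 0.300). CDC25C could not be fitted with at least 10 counts in every library, and with library size alone its change with the combination against CDK4/6i, -0.90, was called (edgeR adjusted p = 0.0458). The cause of these changes was not tested. Replicate numbers did not pair the libraries, since the deviations of same-numbered libraries correlated between -0.0702 and 0.0328, with 0 of 18 pairs over 0.1 and 3 of 12 libraries closest to their own number. With the replicate block 10 members were called in the interaction and 9 with ATRA alone, and no call of a member changed. Among all 13318 tested genes the block gave 6775 calls in the interaction and 8915 with ATRA alone. Depth limited CDC25C, at 4 to 7 counts per library under both drugs, most.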
